A study of Mus musculus with 4 samples.

Results

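The genes described here encode the enzymes that build prenyl diphosphates from acetyl-CoA through mevalonate. They were chosen by name as steps of that pathway, and all 8 (Acat2, Hmgcs1, Mvk, Pmvk, Mvd, Idi1, Fdps and Ggps1) were found among the 47729 gene rows of the count table.

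The RNA came from mouse induced regulatory T (iTreg) cells, CD4 T cells of C57BL/6 mice that had been stimulated and driven in culture with TGF-β and IL-2 while IL-4 and IFN-γ were blocked. Cultures received 50 µM ferrous sulfate (FeSO4) or the buffer alone (Mock) for 4 days, so that every group carried the same cytokines and antibodies and no genetic change. Each group had 2 libraries, which the methods describe as pairs from independent experiments, and p-values measure the spread between these libraries. The comparison asks how the transcripts of iTreg cells differ when ferrous iron is added. Whether the cultures were sorted on Foxp3 before RNA was taken is not given in the sources used here.

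The mevalonate pathway joins acetyl-CoA units into HMG-CoA, reduces this to mevalonate, and phosphorylates and decarboxylates mevalonate to the isoprene unit isopentenyl diphosphate. Isoprene units are then condensed to farnesyl diphosphate, the branch point to cholesterol, and to geranylgeranyl diphosphate, which anchors small GTPases to membranes. Most of its genes are known targets of SREBP-2, a transcription factor released from the endoplasmic reticulum when membrane sterol is low, and dividing T cells use the pathway for new membrane and for protein prenylation.

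The libraries held between 35183187 and 40859178 reads assigned to genes, at which 3 reads correspond to between 0.0717 and 0.0876 counts per 1000000 reads (CPM). Defining T cell and regulatory T cell transcripts were present in each library, with regulatory T cell markers summing to 2028 to 2507 CPM, whereas 0 reads fell on Ncr1 and Klrb1c, markers of NK cells. Those of CD8 T cells, B cells and myeloid cells summed to between 1.84 and 11.02 CPM in each library. The 4 T cell markers summed to 1776 and 1676 CPM in Mock, below the 1949 and 1994 CPM of the iron-treated libraries, and 2 of them rose, Cd3d by 0.38 and Trac by 0.19 on the log2 scale (edgeR adjusted p = 0.000425 and 0.0451). Lyz2, a myeloid marker, had 164 and 8 reads in Mock and 0 in either FeSO4 library. Of 4 regulatory T cell markers 2 fell: Foxp3, the defining factor, stood at 586.6 and 693.4 CPM in the Mock libraries and at 375.6 and 471.6 CPM under FeSO4 (edgeR adjusted p = 0.000223), and Ikzf2 gave -0.79 on the log2 scale (0.000986). Il2ra and Ctla4 gave 0.02 and 0.17 and did not pass (0.847 and 0.226). Of 3 erythroid markers, the globin gene Hba-a1 rose, from 24.5 and 19.6 CPM to 37.5 and 32.5 CPM (edgeR adjusted p = 0.000731). Hbb-b1 and Alas2 had at most 16 reads in a library and were not tested. Hbb-b1 had 12 and 0 reads in Mock and 0 in either FeSO4 library. The part of these differences in the results on the pathway was not tested. In bulk RNA, fewer cells of a type and less RNA per cell cannot be told apart.

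Start regions are shown for 3 members because the sequences around the start site are where sterol control of this pathway is known to act, through a sterol response element beside boxes for the factor NF-Y. Bases are from RefSeq on GRCm38.p6, plus strand, with every ATTGG or CCAAT (the NF-Y box on either strand) and the sterol response element core in capitals.
Hmgcs1, chr13:119690141-119690350: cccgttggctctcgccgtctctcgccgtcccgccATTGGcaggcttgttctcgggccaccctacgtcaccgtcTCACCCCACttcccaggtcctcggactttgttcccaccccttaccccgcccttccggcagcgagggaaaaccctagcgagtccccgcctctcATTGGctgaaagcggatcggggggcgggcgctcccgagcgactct
Idi1, chr13:8885396-8885605: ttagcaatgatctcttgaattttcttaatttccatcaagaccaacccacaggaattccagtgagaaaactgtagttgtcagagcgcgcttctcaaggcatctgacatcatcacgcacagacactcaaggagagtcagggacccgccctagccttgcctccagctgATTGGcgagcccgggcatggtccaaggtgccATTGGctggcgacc
Mvk, chr5:114444079-114444268: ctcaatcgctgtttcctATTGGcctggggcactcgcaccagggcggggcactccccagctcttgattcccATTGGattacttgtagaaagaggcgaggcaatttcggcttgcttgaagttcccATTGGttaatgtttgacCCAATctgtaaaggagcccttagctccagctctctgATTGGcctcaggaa

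Of the 8 members, 7 rose with iron and Ggps1 did not pass the test. The rises ran from 1.52-fold for Mvk to 2.78-fold for Fdps, and the median log2 fold change over the 8 was 0.92, against -0.0005 over the 13732 genes tested. Each of the 7 had an adjusted p under 0.05 in edgeR's quasi-likelihood test, against a background of 10.9% of tested genes called higher and 9.17% called lower at that threshold, and 0 members were called lower. All 7 also passed the threshold that the study used, an unadjusted p under 0.05 with a log2 fold change of at least 0.5, which called 4.67% of tested genes higher; without Mock replicate 2, Mvk gave 0.47 and 6 members passed it. In the same 7 members both FeSO4 libraries lay above both Mock libraries, an order found in 30.1% of tested genes. By p, Hmgcs1 was 5 in the order of all tested genes, Acat2 54, Idi1 67, Pmvk 84, Mvd 89, Fdps 141 and Mvk 416.

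**Figure D1:**
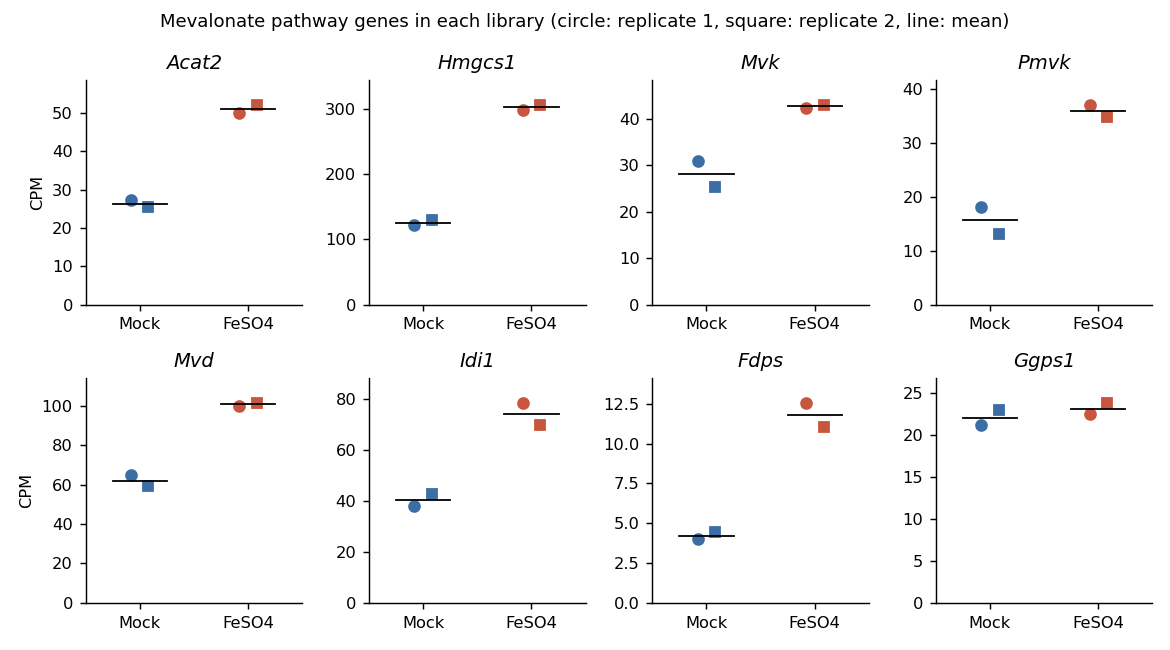
Level of each member (CPM, a linear axis from 0 for each gene) in the 2 Mock and the 2 FeSO4 libraries; circles are replicate 1, squares replicate 2 and lines the group mean. The FeSO4 points stand above the Mock points for 7 genes and mix with them for Ggps1.

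Acat2 (ENSMUSG00000023832; GRCm38 chromosome 17, 12943042 to 12960725) is the cytosolic thiolase that joins acetyl-CoA units to acetoacetyl-CoA, the entry to the pathway. It stood at 27.2 and 25.5 CPM in the Mock libraries and at 49.9 and 52.1 CPM in the FeSO4 libraries. The Mock values were close together and far below either iron-treated value. This was a log2 fold change of 0.95 ± 0.09 (SE), or 1.94-fold (edgeR's quasi-likelihood test, adjusted p = 1.62e-06).

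Hmgcs1 (ENSMUSG00000093930; chromosome 13, 119690351 to 119708260) encodes the cytosolic HMG-CoA synthase, which adds a further acetyl-CoA. It was the most abundant of the 8 by reads, with 121.6 and 129.2 CPM in Mock, against 298.8 and 306.9 CPM with iron. The libraries of each group differed from each other by at most 1.06-fold, while the groups stood 2.42-fold apart. Its log2 fold change of 1.27 ± 0.06 had a 95% interval of 1.14 to 1.41 and an adjusted p of 1.16e-09 by edgeR, the smallest p among the members. Hmgcs1 alone took 37.3% and 40.1% of the members' summed CPM in Mock and 46.6% and 47.7% in FeSO4.

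The reduction of HMG-CoA to mevalonate is covered by none of the members, and the next 3 enzymes phosphorylate mevalonate stepwise and decarboxylate the product. Mvk (ENSMUSG00000041939; chromosome 5, 114444264 to 114460591), mevalonate kinase, had 30.9 and 25.3 CPM in Mock, against 42.3 and 43.0 CPM with iron. The Mock libraries lay further apart than the FeSO4 libraries, and the groups did not overlap. Its rise of 0.60 ± 0.10 on the log2 scale was the smallest of the 7 (edgeR adjusted p = 0.000544).

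Pmvk (ENSMUSG00000027952; chromosome 3, 89454541 to 89469014), phosphomevalonate kinase, stood at 18.2 and 13.2 CPM in the Mock libraries and at 37.1 and 34.9 CPM in those with FeSO4. Its Mock libraries differed 1.38-fold, the widest gap within a group for any member, and this was smaller than the 2.30-fold difference between the groups. The log2 fold change was 1.20 ± 0.13, with a 95% interval of 0.93 to 1.47 and an edgeR adjusted p of 5.66e-06.

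Mvd (ENSMUSG00000006517; chromosome 8, 122433596 to 122443422), the decarboxylase that yields isopentenyl diphosphate, had 65.0 and 59.1 CPM in Mock, against 99.9 and 101.3 CPM with iron. The FeSO4 libraries were nearly equal and both lay above the Mock libraries. The log2 fold change was 0.70 ± 0.08, or 1.62-fold (edgeR adjusted p = 7.21e-06).

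Idi1 (ENSMUSG00000058258; chromosome 13, 8885606 to 8892396) encodes the isomerase that turns isopentenyl diphosphate into its reactive allylic form, dimethylallyl diphosphate. It stood at 38.0 and 42.7 CPM in the Mock libraries and at 78.6 and 70.1 CPM after iron. The groups were well apart, and the 2 libraries of each group differed by the same 1.12-fold. The log2 fold change was 0.88 ± 0.09 (edgeR adjusted p = 3.05e-06).

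Fdps (ENSMUSG00000059743; chromosome 3, 89093588 to 89101967), the synthase of farnesyl diphosphate, rose most in fold and was the least abundant of the 8 by reads. It had 3.99 and 4.47 CPM in Mock, from 162 and 187 reads, and 12.6 and 11.1 CPM in FeSO4, from 430 and 409 reads. Both iron-treated libraries held over 2 times the reads of either Mock library, so the groups were clearly separate. The log2 fold change was 1.48 ± 0.18, and its 95% interval of 1.10 to 1.85 was the widest of the members (edgeR adjusted p = 2.44e-05).

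Ggps1 (ENSMUSG00000021302; chromosome 13, 14049790 to 14063566) encodes the synthase that lengthens farnesyl to geranylgeranyl diphosphate. It stood at 21.2 and 23.0 CPM in the Mock libraries and at 22.5 and 23.8 CPM after iron. The lower FeSO4 library fell between the Mock libraries, so the groups overlapped. Its log2 fold change was 0.07 ± 0.11, with a 95% interval of -0.16 to 0.30 that lay below the intervals of the other 7 members (edgeR adjusted p = 0.704). With 771 to 961 reads per library, a change of the size seen in Mvk would lie outside this interval.

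**Figure D2:**
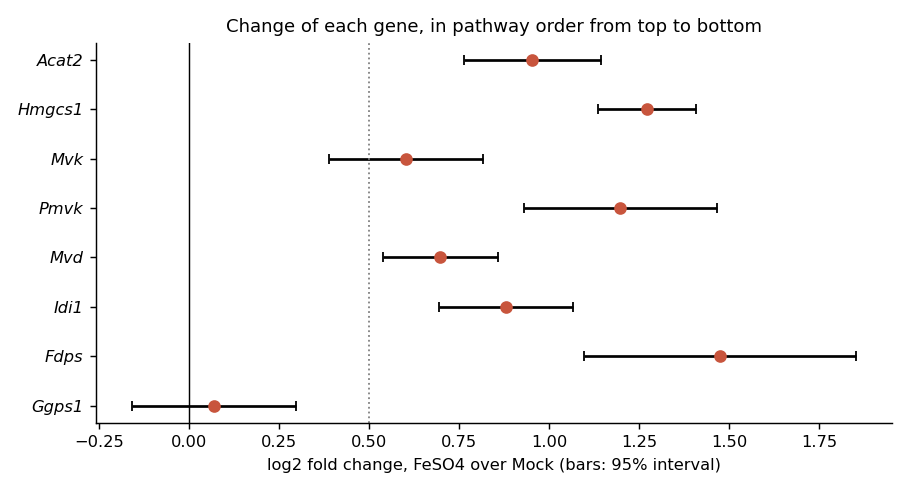
Log2 fold change of FeSO4 over Mock for each member in pathway order, with 95% intervals from edgeR; the dotted line marks the study's threshold of 0.5. The intervals of 7 members lie above 0, and that of Ggps1, -0.16 to 0.30, spans it.

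Both synthases at the end of the pathway draw on the same isoprene units, and the ratio of their CPM moved with the treatment. Fdps CPM divided by Ggps1 CPM was 0.189 and 0.195 in the Mock libraries and 0.558 and 0.464 in the FeSO4 libraries, and the ratio of Hmgcs1 to Ggps1 went from 5.75 and 5.62 to 13.3 and 12.9. The ratios of the FeSO4 libraries were all above those of the Mock libraries, and no test was run on them. They are not scaled by length, and counts of Fdps and Ggps1 are limited by near copies. They restate the rises of Fdps and Hmgcs1 beside Ggps1 and do not give the level of 1 enzyme against another.

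Where FeSO4 replicate 1 was set against Mock replicate 1, and likewise replicate 2, the 7 members that passed were higher in both. This follows for any pairing, because both FeSO4 libraries lay above both Mock libraries in these members. No source used here ties the replicate numbers to pairs, so these folds only describe the spread. Their folds ran from 1.37 (Mvk, replicate 1) to 3.14 (Fdps, replicate 1). Pmvk and Fdps varied most between these settings, at 2.04 and 2.64 for Pmvk and at 3.14 and 2.47 for Fdps, whereas Hmgcs1 gave 2.46 and 2.38. Ggps1 gave 1.06 and 1.04.

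As a share of all gene reads, the 8 members took 0.0333% (95% Wilson interval 0.0327 to 0.0339) and 0.0330% (0.0324 to 0.0336) in Mock. In FeSO4 they took 0.0625% (0.0617 to 0.0633) and 0.0631% (0.0623 to 0.0639). These intervals cover counting error only, and the shares of the libraries within each group lay within each other's intervals while the groups were far apart. Summed over the members, the level rose from 326.0 and 322.4 CPM in the Mock libraries to 641.7 and 643.1 CPM in FeSO4.

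Levels can be compared between genes only per length. On the scale of CPM per kilobase of exon (GENCODE M1 lengths, which Hmgcs1 lacks here), Mvd was highest in Mock at 35.2 ± 2.37 (SD, n = 2) and Fdps lowest at 3.43 ± 0.275. Between them Idi1 stood at 14.1 ± 1.15, and Mvk, Pmvk and Acat2, at 10.5 ± 1.47, 10.4 ± 2.34 and 10.4 ± 0.488, did not differ beyond their spread, with Ggps1 at 9.23 ± 0.541. In FeSO4 the order was Mvd (57.1 ± 0.545), Idi1 (25.9 ± 2.09), Pmvk (23.8 ± 1.04), Acat2 (20.1 ± 0.601) and Mvk (15.9 ± 0.184). Ggps1 and Fdps came last at 9.68 ± 0.385 and 9.57 ± 0.861, values closer to each other than the spread of either. Lengths were not corrected for bases that have copies elsewhere in the genome. The values of Fdps, Idi1, Ggps1 and Acat2 can therefore be too low, and their places in both orders are uncertain.

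Counts of some members are limited by copies elsewhere in the genome, because reads that align to more than 1 place are not in the gene rows. Matches of at least 90% identity and any length, searched on NCBIM37, covered 96.4% of the Fdps transcript. Of at least 500 bases there were 6, on 6 chromosomes, with an identity of up to 98.8%. For Idi1 there were 3 such matches on 2 chromosomes (up to 99.3% identity), for Ggps1 2 on 1 chromosome (up to 95.9%), and for Acat2, Mvk, Pmvk and Mvd 0. The levels of Fdps, Idi1 and Ggps1 can therefore be too low and are uncertain, and Hmgcs1 was not examined. Acat2 had shorter pieces, up to 445 bases, matched elsewhere over 62.8% of its transcript, so its level carries the same limit.

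Several members have close neighbours. Mmab, a cobalamin adenosyltransferase gene, starts 190 bases from Mvk in the opposite direction, and stood at 23.1 and 20.2 CPM in the Mock libraries and at 24.1 and 25.4 CPM after iron. Its log2 fold change of 0.20 ± 0.11 did not pass the test (edgeR adjusted p = 0.228). Arid4b, a chromatin regulator gene 42 bases from Ggps1 on GRCm38, gave 0.01 ± 0.09 (edgeR adjusted p = 0.949). In the GENCODE M1 annotation used for exon lengths, 7.11% of the exon bases of Ggps1 lie in exons of Arid4b as well, so the annotations differ here. Rusc1, 224 bases from Fdps, gave 0.02 ± 0.21, and Cyba, a subunit gene of the phagocyte NADPH oxidase 655 bases from Mvd, rose by 0.31 ± 0.07 (edgeR adjusted p = 0.00369).

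Of 5 genes described for acetyl-CoA supply and for isozymes of the members, 4 were tested, 3 rose and 0 fell. Their median log2 fold change was 0.22, and 10.9% of all tested genes were called higher and 9.17% lower. Slc25a1, the mitochondrial citrate carrier, went from 57.5 to 81.8 CPM (0.51 ± 0.08, edgeR adjusted p = 0.000465), and Acly, which splits citrate to cytosolic acetyl-CoA, from 380.1 to 448 CPM (0.24 ± 0.07, adjusted p = 0.0165). Acat1, the mitochondrial thiolase, gave 0.20 ± 0.07 at an adjusted p of 0.0491, a call lost under 10 of the 13 alternative settings, and that of Acly was lost under 4. Acss2, which makes acetyl-CoA from acetate, gave -0.10 ± 0.11 and did not pass, while Idi2, the other isomerase, had at most 19 reads in a library and was not tested.

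Of 12 genes described for control of the pathway through SREBP, 11 were tested, 4 rose and 1 fell, with a median log2 fold change of 0.22. Over all tested genes 10.9% were called higher and 9.17% lower, so 1 fall in 11 is near that share. Insig1, which holds the SREBP complex in the endoplasmic reticulum, went from 101.2 to 198 CPM (0.97 ± 0.07, edgeR adjusted p = 6.86e-08), and Srebf1, the gene of SREBP-1, from 193 to 341.8 CPM (0.82 ± 0.06, adjusted p = 1.63e-07). Stard4, a carrier of cholesterol between membranes, rose by 0.63 ± 0.07, and Srebf2, the gene of SREBP-2, by 0.36 ± 0.06. Scap, the escort protein of SREBP, was the gene that fell, by 0.30 ± 0.07 on the log2 scale (edgeR adjusted p = 0.00645). The call on Scap was lost without the low-count filter (adjusted p = 0.073) and without FeSO4 replicate 2 (0.0976).

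In the branch from farnesyl diphosphate to cholesterol, 11 of 12 listed genes, all tested, rose and 0 fell, with a median log2 fold change of 0.95. The shares called over all tested genes were 10.9% higher and 9.17% lower. Cyp51, the lanosterol demethylase, went from 129.6 to 296.1 CPM (1.19 ± 0.07), and Msmo1, a sterol methyl oxidase, from 32.0 to 71.8 CPM (1.17 ± 0.08). Sqle, squalene epoxidase, went from 90.9 to 179.5 CPM (0.98 ± 0.07), and Fdft1, the squalene synthase that takes farnesyl diphosphate into this branch, from 57.7 to 108.4 CPM (0.91 ± 0.07), with edgeR adjusted p-values between 2.47e-09 and 2.31e-07 for these 4. Ebp, a sterol isomerase, gave 0.20 ± 0.08 and did not pass (edgeR adjusted p = 0.0991). Both of its FeSO4 libraries lay above both Mock libraries, an order found in 30.1% of tested genes. It passed under 2 of the 13 alternative settings, 1 of them without Mock replicate 1.

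The products other than sterols are made by genes of a further list. It holds 16 genes, covering prenyltransferases, processing of prenylated proteins, ubiquinone and dolichol. All were tested, 1 rose and 0 fell, with a median log2 fold change of 0.01 and a range of -0.16 to 0.41. Among all tested genes 10.9% were called higher and 9.17% lower, so 1 call in 16 is not above that share. The gene that rose was Rabggtb, the catalytic subunit of the Rab geranylgeranyl transferase, from 46.0 to 61.1 CPM (0.41 ± 0.08, edgeR adjusted p = 0.00151). Fnta, the subunit shared by the farnesyl and geranylgeranyl transferases, gave -0.16 (adjusted p = 0.193), Zmpste24, a protease of prenylated proteins, 0.19 (0.0849), and Nus1, a subunit of the dolichol synthase, 0.16 (0.167). Ggps1, at 0.07, lay within the range of these genes and below the other members.

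**Figure D3:**
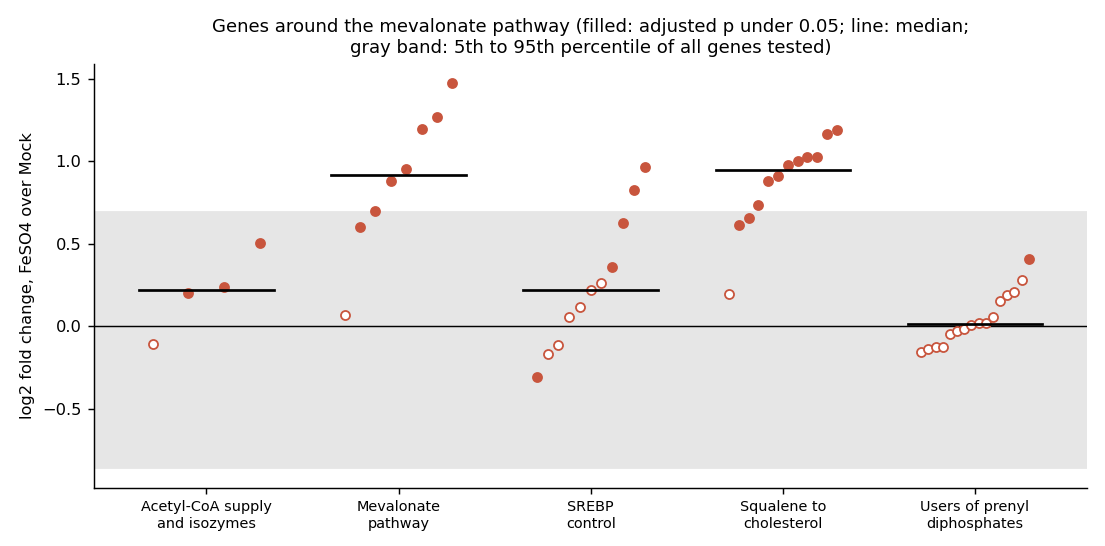
Log2 fold change of FeSO4 over Mock for each tested gene of the 8 members and of 4 further lists of the pathway; each point is 1 gene, filled where its adjusted p was under 0.05, the line marks the median of its list, and the gray band runs from the 5th to the 95th percentile of all tested genes (-0.86 to 0.69). The members and the squalene-to-cholesterol genes centre on 0.92 and 0.95, and the users of prenyl diphosphates on 0.01.

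The members' median profile, taken as centred log2 CPM, was -0.40 and -0.49 in Mock and 0.48 and 0.43 in FeSO4. Among the other genes whose mean reached 10 CPM, those with a small root mean square distance to this profile over the 4 libraries included Gpr171 (0.0209 on the log2 scale), Ctla2a (0.0307), Insig1 (0.0374) and Sqle (0.0408). Among the members Acat2 was nearest at 0.0479 and Ggps1 farthest at 0.425. Gpr171, a G protein-coupled receptor, and Ctla2a, a protease inhibitor, went from 35.4 to 64.6 CPM and from 200.4 to 364.2 CPM. Over 4 libraries in 2 groups, such a distance is a description only.

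Entries for the start region were found for 7 members, among 32851 windows of 27025 genes; Fdps had none. In the 250 bases before the start, on either strand, the sterol response element core TCACNCCAC was present in 1.05% of all windows and in 1 member, Hmgcs1, 137 bases before its start. CCAAT was present in 33.8% of all windows and in 6 members: 5 copies in Mvk, 3 each in Hmgcs1 and Ggps1, 2 each in Mvd and Idi1, and 1 in Pmvk, at 1 of the 2 starts listed for it. At least 3 copies were held by 2.79% of windows. GGGCGG, the GC box, was present in 32.7% of windows and in 5 members (Acat2, Hmgcs1, Mvk, Mvd and Idi1). Matches of the 3 motifs did not overlap one another. Ggps1 held as many CCAAT boxes as Hmgcs1, and Acat2 held none. The Ggps1 window, 14063439 to 14063738, overlaps the RefSeq gene, which ends at 14063566, and Arid4b, which begins at 14063609. Its boxes lay within these genes and not in the gap between them. The part of any box in the changes was not tested.

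**Figure D4:**
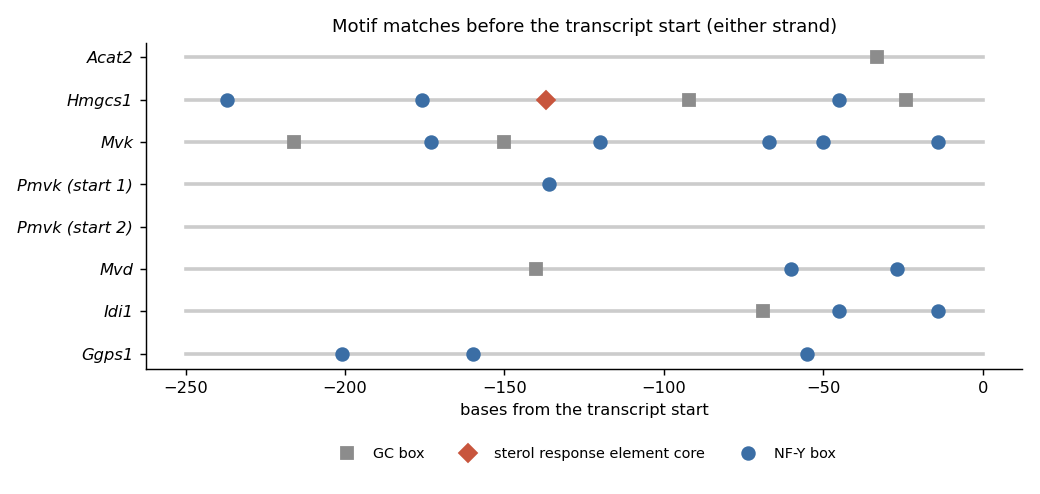
Matches of the 3 motifs in the 250 bases before the start of the members with an entry; the axis is the distance to the start in bases. The sterol response element core is marked in Hmgcs1 at 137 bases before the start, and Mvk holds 5 CCAAT boxes.

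The calls on the members at an adjusted p under 0.05 held under all 13 alternative settings of normalization, filter, test and left-out library, in direction and in side of the threshold. The log2 fold change ranged from 0.47 to 0.74 for Mvk, from 0.99 to 1.44 for Pmvk, from 1.39 to 1.57 for Fdps and from 1.21 to 1.32 for Hmgcs1. Ggps1 stayed between 0.00 and 0.14, with adjusted p-values between 0.55 and 0.987. The highest adjusted p of a called member was 0.0429, for Mvk when no genes were filtered out.

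**Figure D5:**
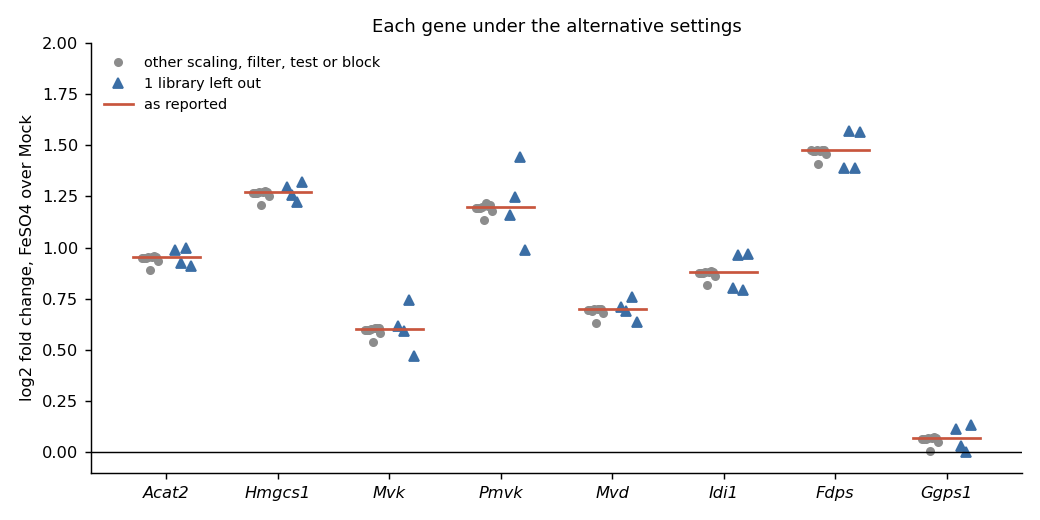
Log2 fold change of each member as reported (line) and under 13 alternatives; circles are other scalings, filters, tests or the block, and triangles leave out 1 library. The points of the 7 called members stay above 0.4 and those of Ggps1 lie between 0.00 and 0.14.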

How the data were processed

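RNA-seq counts per gene were measured in 4 libraries, 2 Mock and 2 FeSO4. The authors deposited raw whole-number counts, not normalized. The submitters' processing notes name Trim Galore 0.6.7, STAR 2.7.9a, featureCounts and mm10, whereas the study's methods name mm9; the annotation and the strand setting are not given in the sources used here. The closing rows of the table, reads assigned to no gene, were left out of library sizes: no feature 4.36 to 6.03% of reads, ambiguous 3.78 to 3.91%, low alignment quality 0.802 to 0.988%, unaligned 1.80 to 2.31% and aligned to more than 1 place 4.27 to 4.62%.

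Counts were filtered with filterByExpr, leaving 13732 genes, scaled by TMM and tested with edgeR 4.0.16 (glmQLFit and glmQLFTest, R 4.3.3) with Benjamini-Hochberg adjustment over all of them. SE is the log2 fold change divided by the square root of F. Counts of 13497 genes were simulated for this comparison. Of 99 genes changed by 1 on the log2 scale 71.7% were called, and of 98 genes changed by 0.5 46.9% were called. Of 13300 unchanged genes 4 were called. Far fewer genes were changed than the 2750 called in the data, so these rates can differ from those of the real test. The alternatives were DESeq2 1.42.0, limma 3.58.1 (voom), other scalings and filters, a replicate block and each library left out. CPM used TMM-scaled library sizes. Copies were searched with BLAST 2.17.0.

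The members and the lists were chosen with earlier results of these data known. Members were all named; of each further list up to 4 genes of smallest p were named, with the exceptions where these were 5 or fewer. Neighbours, copies and genes among the 5 nearest the members' profile were named by rule, and marker genes as checks. Some genes of the lists are not reported here and were left out of the lists' counts.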

Additional observations from a re-analysis of the deposited data

Results flagged for a closer look

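Some reads were assigned to no gene and entered no comparison. Of all reads, those with a low alignment quality made up 0.978% and 0.988% in FeSO4 replicates 1 and 2. The shares in Mock were lower, at 0.802% and 0.929%. Reads aligned to more than 1 place made up 4.6% and 4.62% of all reads in FeSO4, above the 4.42% and 4.27% of Mock. Their part in the values of Fdps, Idi1, Ggps1 and Acat2, whose transcripts have near copies elsewhere, was not tested.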

How the results depend on the processing

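With 2 libraries in each group, the spread of each gene rests largely on what genes of like level share, and a lone library left in a group is assumed to vary like the other group. All 104 member values (8 members under 13 alternatives) kept their direction and their side of the threshold, and 7 members were called at the adjusted p in each of them. At the study's threshold the count was 6 to 7 with each library left out, 6 being without Mock replicate 2, where Mvk gave 0.47, and 3 when a log2 fold change of at least 1 was asked. The median of the members was 0.894 to 0.945 with each library left out, and 0.85 with library size as the only scaling, under which the median of all genes was -0.0655. The methods speak of pairs from independent experiments, but no source used here ties the replicate numbers to them, and same-numbered deviations had a correlation of 0.0293 across genes, so the pairing is unknown. With the replicate block the median was 0.917, 7 members were called and calls over all genes went from 2750 to 3427. Under the block Ebp, Zmpste24, Rnf139 and Mbtps1 gained a call (edgeR adjusted p = 0.0335, 0.0485, 0.049 and 0.0471), so that 2 users of prenyl diphosphates rose, and 5 genes of SREBP control rose and 2 fell. edgeR's legacy quasi-likelihood fit, chosen after seeing the data, changed no call on a member. Of 559 values of the other pathway genes described, 537 kept their call, 16 lost it and 6 gained it; the cause was not tested.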
